A study of Gallus gallus with 6 samples.

Results

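Heat shock proteins are chaperones. Most of those described here bind unfolded or partly folded proteins and release them through cycles of ATP binding and hydrolysis. In the cytosol, HSP70 proteins receive new chains and pass some of them to HSP90 dimers, which finish the folding of kinases, receptors and other clients. In mitochondria, a dedicated HSP70 pulls precursors through the inner membrane and the HSP60 chamber with its HSP10 lid folds them. The lens keeps its proteins for life and is rich in the small heat shock proteins alpha A and alpha B crystallin, which hold damaged proteins without ATP. The roles given here for single genes are known mainly from mammals and were not tested in these explants.

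The genes described encode large heat shock proteins of the cytosol and the mitochondria, and the small HSP10 lid of HSP60, chosen by name. The list held 10 symbols, and 9 of them were found as gene names among the 24356 genes of the deposited tables. They are HSP90AA1, HSP90AB1, HSPA8, HSPA4 and HSPH1 of the cytosol, and HSPA9, HSPD1, HSPE1 and TRAP1 of the mitochondria. No row carried the name HSPA2, a cytosolic HSP70. All 9 passed the filter on low counts, which kept 12583 genes.

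RNA was sequenced from chicken (Gallus gallus) lens explants kept in culture after cataract surgery. In 3 libraries, labelled GSK-J4, explants had received GSK-J4 daily between day 1 and day 3 after the injury. GSK-J4 enters cells as an ester and blocks KDM6A and KDM6B, enzymes that remove methyl groups from histone H3. In the other 3 libraries, labelled DMSO, explants had received the solvent on the same days. Both groups therefore share the injury, the serum-containing medium and the culture time, and uninjured lenses were not analysed here. The labels give no strain, age or number of animals, and do not say whether libraries came from separate animals or cultures. The p-values thus cover the spread among these 6 libraries alone, and how much of it is technical is not known. Sums of chromosome W genes, given below, differed within each group, so its libraries were not all repeats of a single RNA pool.

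The libraries held 14862268 to 22541756 counts assigned to genes. The crystallin set made up 22.5% to 25.5% of the counts in GSK-J4 libraries and 20.8% to 23.3% in DMSO libraries. It held the 20 genes whose symbols begin with CRY or are ASL1 or ASL2. This name rule can take in genes that are not lens crystallins. Of 14 listed lens fibre markers, 13 had a row in the tables and 12 passed the filter on low counts. Markers of other cell types were low. The summed CPM (counts scaled to library size with TMM factors) of 9 blood genes was 9.32 to 13.8 with GSK-J4 and 13.1 to 17.04 with DMSO, with 6 globin genes at 0 throughout. For 8 leukocyte genes it was 2.87 to 9.43 with GSK-J4 and 3.49 to 18.8 with DMSO, for 7 endothelial genes 23.9 to 33.3 and 21.1 to 33.5, for 7 pigment cell genes 2.38 to 2.94 and 2.33 to 2.98, and for 6 retina genes 10.5 to 12.1 and 9.79 to 11.9. CDH5 and TYR were at 0 in all libraries. Genes of chromosome W, which female birds carry, summed to 15.6 to 763 CPM with GSK-J4 and 390.4 to 938 CPM with DMSO, so the mix of sexes differed between libraries within a group. GSK-J4 replicate 3 stood apart with the lowest sum. Values without this library are given for HSP90AB1, HSPA4, MDK and QTRT2, not for every gene.

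Per unit of length, the members spanned a wide range of levels and kept the same order in both groups. HSPA8, the constitutive HSP70 that also strips clathrin from vesicles, stood first with 473, 484 and 466 FPKM (fragments scaled to gene length and library size, the authors' values) in GSK-J4 replicates 1, 2 and 3, against 552, 538 and 567 FPKM in DMSO replicates 1, 2 and 3. Its level exceeded that of 99.3% of the 17951 genes with any count. HSPH1, an HSP110 protein that exchanges the nucleotide of HSP70, stood last with 10.1, 12.9 and 12.3 FPKM in GSK-J4 libraries and 8.33, 14.2 and 17.9 FPKM in DMSO libraries, still above 72.1% of detected genes.

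Between them came HSP90AB1, at 259 ± 12.5 FPKM with GSK-J4 and 365 ± 42.2 FPKM with DMSO (SD, n = 3 each), and HSP90AA1, at 174 ± 14.9 and 186 ± 29.7 FPKM. The chaperonin gene HSPD1 had 139.5 ± 15.8 FPKM with GSK-J4 and 145 ± 26.7 FPKM with DMSO, and HSPA9 had 116 ± 9.87 and 93.3 ± 5.12 FPKM. HSPE1 had 69.0 ± 2.69 FPKM with GSK-J4 and 77.5 ± 9.10 FPKM with DMSO. HSPA4 (35.2 ± 4.16 and 32.7 ± 3.15 FPKM) and TRAP1 (27.6 ± 1.41 and 24.4 ± 1.97 FPKM) followed. Neighbours in this order had separate ranges, with 2 exceptions. HSPD1 and HSPA9 overlapped in GSK-J4 libraries, where the lowest HSPD1 value was 121 and the highest HSPA9 value 123 FPKM, and HSP90AA1 and HSPD1 overlapped in DMSO libraries, where the lowest HSP90AA1 value was 156 and the highest HSPD1 value 168 FPKM.

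**Figure D1:**
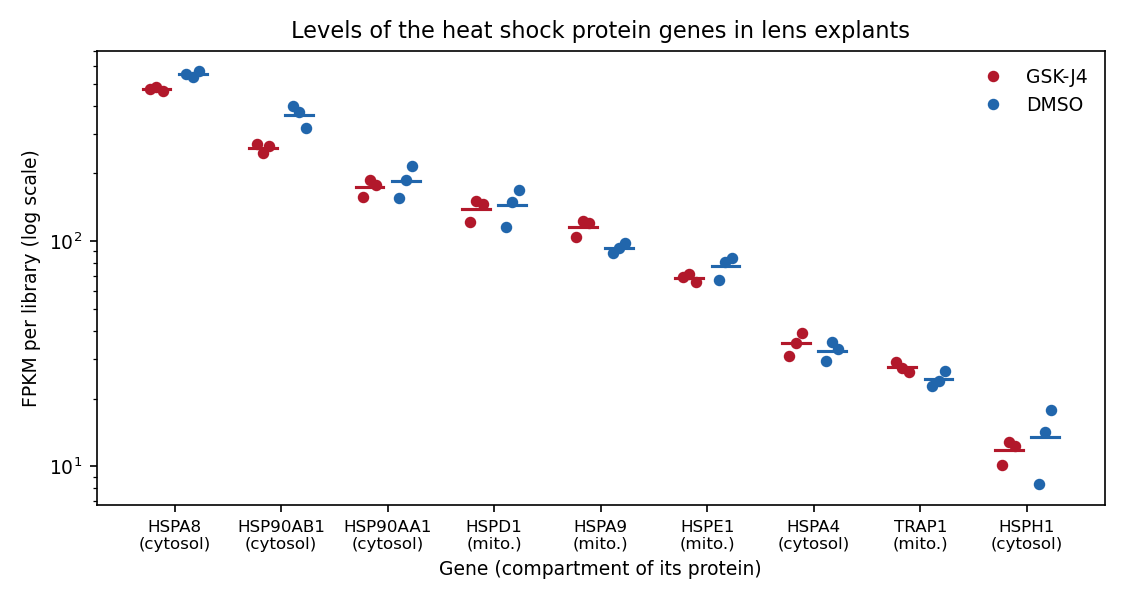
FPKM of the 9 heat shock protein genes in each library on a log axis, with GSK-J4 libraries (red) left of DMSO libraries (blue), replicates 1 to 3 from left to right and lines at the group means. HSPA8 is highest at 466 to 567 FPKM and HSPH1 lowest at 8.33 to 17.9 FPKM, and the groups do not overlap for HSP90AB1, HSPA8 and HSPA9.

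The comparison of GSK-J4 with DMSO asks how the chaperone genes of the injured lens respond to the drug. With GSK-J4, HSP90AB1 stood at 0.705 of its DMSO level and was called lower, and no member was called higher. The call of HSP90AB1 was lost in most fits that left out a library. HSPA8 stood lower and HSPA9 higher in every GSK-J4 library than in any DMSO library, by margins that did not pass the test. The other 6 members lay within 0.20 of 0 on the log2 scale. In edgeR's quasi-likelihood test across all 12583 genes, 1 of 9 members was called at an adjusted p below 0.05, against 5.04% of all genes tested. That call was lower, and 0 members were called higher, against 3.99% lower and 1.05% higher among all genes. The median log2 fold change was -0.10 over the members and 0.01 over all genes, and 3 of 9 members had an unadjusted p below 0.05, as did 19.1% of all genes. CPM ranges did not overlap between the groups for 4 members, lower for 2 and higher for 2, while 24.3% of all genes had such ranges. DESeq2 and limma-voom also called 1 member, HSP90AB1.

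**Figure D2:**
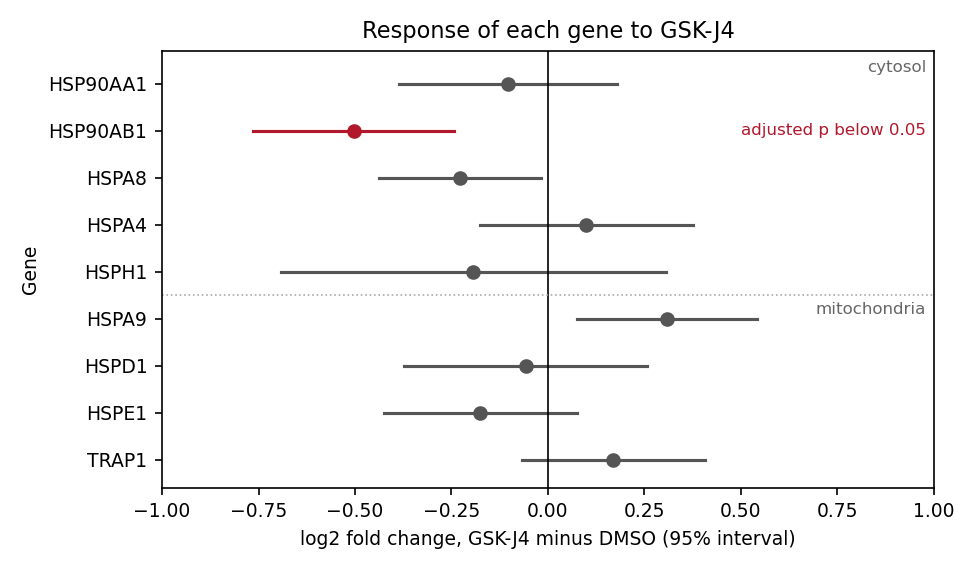
Log2 fold change of each gene (GSK-J4 minus DMSO, n = 3 libraries each) with its 95% interval from edgeR, cytosolic genes above the dotted line and mitochondrial genes below it. The interval of HSP90AB1 runs from -0.76 to -0.24 and is the one in red, with an adjusted p below 0.05. The intervals of HSPA8 and HSPA9 also leave out 0, on opposite sides.

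Vertebrates have a pair of cytosolic HSP90 genes. HSP90AB1 encodes the constitutive form and HSP90AA1 the form that heat and other stress induce. HSP90AB1 (ENSGALG00000010175, chromosome 3, 30393097 to 30399049, minus strand, in the coordinates of the deposited tables, of unstated genome build) had 690.4, 637 and 686 CPM in GSK-J4 replicates 1, 2 and 3, against 1054, 991 and 809.8 CPM in DMSO replicates 1, 2 and 3. The GSK-J4 libraries lay close together below all DMSO libraries, and DMSO replicate 3 was the nearest to them. The log2 fold change was -0.50 (SE 0.12), with a 95% interval of -0.76 to -0.24 and an edgeR adjusted p of 0.0343. The fold change stayed between -0.61 and -0.42 when any one library was left out, but the call was then kept in 1 of 6 fits. It was kept without DMSO replicate 3 (adjusted p = 0.00547) and lost without GSK-J4 replicate 1 (0.0753), 2 (0.172) or 3 (0.124) and without DMSO replicate 1 (0.0653) or 2 (0.0657). Most markers of contractile cells were also lower with GSK-J4. Among DMSO libraries, ACTA2, LMOD1 and TAGLN, the 3 contractile markers with the smallest p, were highest in replicate 3, and HSP90AB1 was lowest there. The lowest DMSO library was replicate 1 for ACTA2 and replicate 2 for LMOD1 and TAGLN, while HSP90AB1 was highest in replicate 1. The summed CPM of the contractile markers was 679 to 966 in GSK-J4 and 1787 to 2604 in DMSO libraries, and 4 of 6 tested were called lower. The 13 lens fibre genes summed to 177282 to 218730 CPM in GSK-J4 and 155533 to 181353 CPM in DMSO libraries, with 1 of 12 tested called higher. The fold change was negative for 0 of these 12, against 6019 of 12583 over all genes tested. Their median log2 fold change was 0.31, against 0.01 over all genes. The 6 lens epithelial genes summed to 2854 to 2955 CPM in GSK-J4 and 2309.8 to 2662 CPM in DMSO libraries. Of these, 1 was called higher, GJA1 (mean 1482 CPM with GSK-J4 and 1049 CPM with DMSO). The fold change was negative for 3 of the 6, with a median of -0.04. The part of these cell types in the change of HSP90AB1 was not tested. In whole explants, fewer cells of a type and less RNA per cell cannot be told apart.

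HSP90AA1 (ENSGALG00000033212, chromosome 5, 49673894 to 49685640, minus strand) did not pass the test. It had 675, 811 and 772 CPM in GSK-J4 replicates 1, 2 and 3, against 687, 823 and 917 CPM in DMSO replicates 1, 2 and 3. The ranges overlapped, DMSO replicates 2 and 3 were above every GSK-J4 library, and replicate 1 was the lowest in both groups. The log2 fold change was -0.10 (95% interval -0.39 to 0.18, edgeR adjusted p = 0.718). Per length, HSP90AB1 stood at 1.71, 1.31 and 1.49 times HSP90AA1 in GSK-J4 replicates 1, 2 and 3, and at 2.57, 2.02 and 1.48 times HSP90AA1 in DMSO replicates 1, 2 and 3. The ratio in DMSO replicate 3 fell inside the GSK-J4 range, so the groups overlapped in it. Both genes have similar sequences, and how reads that match both were counted is not stated in the notes, so their split is uncertain.

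HSPA8 (ENSGALG00000006512, chromosome 24, 3102875 to 3110564, plus strand) had 1443, 1496 and 1446 CPM in GSK-J4 replicates 1, 2 and 3, against 1732, 1686 and 1719.9 CPM in DMSO replicates 1, 2 and 3. It was the least variable member, since its highest library exceeded its lowest by a factor of 1.04 in GSK-J4 and 1.03 in DMSO, against medians of 1.26 and 1.35 over all tested genes. The groups were apart by more than either spread, at 1462 ± 29.8 and 1712 ± 23.9 CPM (SD, n = 3 each). The log2 fold change of -0.23 (95% interval -0.44 to -0.02) had an unadjusted p of 0.0361 and an adjusted p of 0.219 in edgeR, whose estimate of spread borrows from all genes. The sign held in all 18 alternative fits, with adjusted p from 0.0984 to 0.52. HSPA8 overlaps 3 annotated small nucleolar RNA genes on its own strand, none of which had more than 29 counts in a library.

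The HSP110 genes, whose proteins recharge HSP70 with ATP, did not pass the test. HSPA4 (ENSGALG00000040882, chromosome 13, 17851237 to 17868185) had 103, 119 and 132 CPM in GSK-J4 replicates 1, 2 and 3, against 99.8, 121 and 109.6 CPM in DMSO replicates 1, 2 and 3 (log2 fold change 0.10, edgeR adjusted p = 0.726). Without GSK-J4 replicate 3, its highest library, the log2 fold change of HSPA4 was 0.01. HSPH1 (ENSGALG00000017077, chromosome 1, 176342901 to 176364943) had 31.5, 40.6 and 39.0 CPM in GSK-J4 libraries and 26.6, 45.4 and 55.2 CPM in DMSO libraries (log2 fold change -0.19, edgeR adjusted p = 0.703). The GSK-J4 values of HSPH1 all lay within the DMSO range. HSPH1 was the most variable member, with a highest DMSO library 2.07 times the lowest, and its fold change was -0.44 without DMSO replicate 1 and 0.04 without DMSO replicate 3. Its interval, -0.69 to 0.31, was the widest of the 9, and the 8 members that were not called had intervals within these limits or, for HSPA9, HSPA4 and TRAP1, up to 0.54, 0.38 and 0.41.

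Among the mitochondrial genes, HSPA9 (ENSGALG00000002363, chromosome 13, 3514654 to 3536257, plus strand) had the smallest p. It encodes mortalin, the HSP70 of the matrix that drives import and helps build iron-sulfur clusters. It had 295, 351 and 344 CPM in GSK-J4 replicates 1, 2 and 3, against 255, 269 and 275 CPM in DMSO replicates 1, 2 and 3. All GSK-J4 libraries were above all DMSO libraries, at 329.9 ± 30.6 and 266 ± 10.4 CPM (SD, n = 3 each). The log2 fold change of 0.31 (95% interval 0.07 to 0.54) had an unadjusted p of 0.0144 and an adjusted p of 0.133 in edgeR. It was positive in all 18 alternative fits (0.21 to 0.39), and adjusted p ranged from 0.0506 to 0.39, so none called it.

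HSPD1 and HSPE1 encode the chaperonin barrel HSP60 and its lid HSP10. The tables place them head to head on chromosome 7, with HSPD1 (ENSGALG00000008094) at 10221487 to 10231186 on the minus strand, HSPE1 (ENSGALG00000009070) at 10231654 to 10236618 on the plus strand and 467 bases between their starts. HSPD1 had 277, 349 and 340.2 CPM in GSK-J4 replicates 1, 2 and 3, against 272, 351 and 382 CPM in DMSO replicates 1, 2 and 3. HSPE1 had 82.1, 85.3 and 79.2 CPM in GSK-J4 libraries and 81.5, 98.2 and 99.0 CPM in DMSO libraries. In both genes DMSO replicate 1 lay within or below the GSK-J4 range, so the groups overlapped. The log2 fold changes were -0.06 (95% interval -0.37 to 0.26, adjusted p = 0.878) for HSPD1 and -0.18 (95% interval -0.43 to 0.07, adjusted p = 0.448) for HSPE1 in edgeR.

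Per length, HSPD1 stood at 1.75, 2.11 and 2.22 times HSPE1 in GSK-J4 libraries and at 1.72, 1.85 and 2.00 times HSPE1 in DMSO libraries. The FPKM of HSPA9 was 0.863, 0.818 and 0.821 of that of HSPD1 in GSK-J4 replicates 1, 2 and 3, against 0.762, 0.623 and 0.584 in DMSO replicates 1, 2 and 3. The matrix HSP70 and the chaperonin were thus closer in level in each GSK-J4 library than in any DMSO library. This ratio was chosen after the values were seen and carries no test.

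TRAP1 (ENSGALG00000039951, chromosome 14, 12871040 to 12889227, minus strand), the HSP90 of mitochondria, had 76.5, 72.8 and 70.4 CPM in GSK-J4 replicates 1, 2 and 3, against 61.5, 64.4 and 69.4 CPM in DMSO replicates 1, 2 and 3. The groups did not overlap in CPM, but they did in FPKM, where GSK-J4 replicate 3 had 26.3 and DMSO replicate 3 had 26.6 FPKM. The log2 fold change was 0.17 (95% interval -0.07 to 0.41, edgeR adjusted p = 0.436). Of the 4 mitochondrial members, HSPA9 and TRAP1 thus had positive and HSPD1 and HSPE1 negative fold changes.

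Summed over the 5 cytosolic members, FPKM was 940.1, 964 and 958 in GSK-J4 replicates 1, 2 and 3, against 1145, 1150.3 and 1151 in DMSO replicates 1, 2 and 3. The groups did not overlap, and HSPA8 and HSP90AB1 made up most of the sum. Over the 4 mitochondrial members it was 325, 372 and 359 FPKM in GSK-J4 libraries and 294, 348 and 378 FPKM in DMSO libraries, which overlapped. These sums are descriptions, with no test.

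Several members shared a low library within each group. Replicate 1 had the lowest CPM for 6 of 9 members in GSK-J4 and for 7 of 9 in DMSO, and for 5 of 9 in both, namely HSP90AA1, HSPA4, HSPH1, HSPA9 and HSPD1. Over all tested genes, replicate 1 was the lowest for 39% in GSK-J4, for 35.3% in DMSO and for 22.1% in both. DMSO replicate 3 was the highest DMSO library for 6 of 9 members, a count for which the share over all tested genes was not computed. HSPH1 was 0.51 above its 6-library mean in DMSO replicate 3 and 0.53 below it in DMSO replicate 1, on the log2 CPM scale. HSP90AB1 ran the other way within DMSO, where replicate 1 was highest and replicate 3 lowest. Whether libraries with one number came from a common source is not given in the labels.

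**Figure D3:**
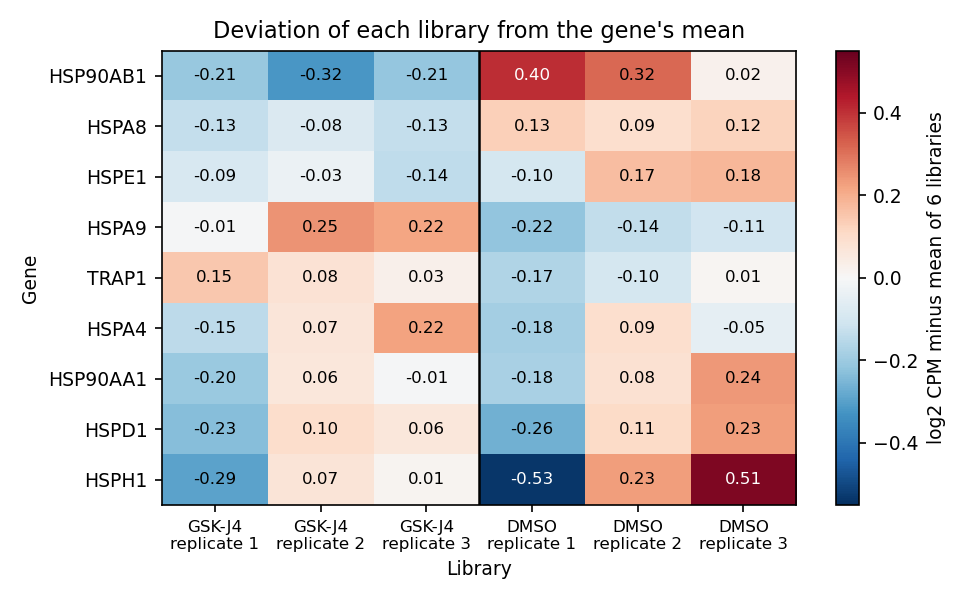
Log2 CPM of each gene (rows) in each library (columns) minus the mean of that gene over the 6 libraries, with GSK-J4 libraries left of the line and DMSO libraries right of it. HSP90AB1, HSPA8 and HSPE1 are below their mean in all GSK-J4 libraries. HSP90AA1, HSPA4, HSPH1, HSPA9, HSPD1 and HSPE1 are below theirs in replicate 1 of both groups.

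By the distance between profiles over the 6 libraries, the genes most like HSP90AB1 were QTRT2, MDK and PLK2. The root-mean-square difference of their centred log2 CPM from that of HSP90AB1 was 0.06, 0.06 and 0.07, among 8623 genes with a symbol and a mean of at least 5 CPM. QTRT2, a subunit of the enzyme that puts queuine into tRNA, had a log2 fold change of -0.58, and MDK, the growth factor midkine, one of -0.58. Both were called, with edgeR adjusted p of 0.0314 and 0.0305, whereas PLK2, a kinase, was not (-0.42, adjusted p = 0.156). Dropping GSK-J4 replicate 1, 2 or 3 ended both calls, with edgeR adjusted p of 0.0677, 0.158 and 0.102 for MDK and 0.0682, 0.167 and 0.114 for QTRT2. The QTRT2 call was also lost without DMSO replicate 2 (0.0657). These genes were picked for profiles close to that of HSP90AB1 in the same 6 libraries. Their similar fold changes and lost calls follow from that choice and are no separate evidence.

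Few partners of these chaperones were called. Among 122 tested genes on 9 lists of co-chaperones, regulators, related chaperones and mitochondrial import and protease genes, the test called 1 lower and 0 higher and left 121 uncalled, against 5.04% called among all genes tested (3.99% lower and 1.05% higher). An unadjusted p below 0.05 was found for 9 of the 122 and for 19.1% of all genes. DESeq2 called 1 higher and 4 lower, against 325 higher and 723 lower among all 12583 genes it tested. The median log2 fold change of the 122 was -0.02, against 0.01 over all genes, and 15.6% had ranges that did not overlap, against 24.3% of all genes. The lower gene was HSPB7, a small heat shock protein known from mammalian heart muscle, at 1.56, 1.07 and 1.08 CPM in GSK-J4 replicates 1, 2 and 3, against 5.12, 5.61 and 5.42 CPM in DMSO replicates 1, 2 and 3. Its log2 fold change of -2.12 (SE 0.28, edgeR adjusted p = 0.0016) was called in all 18 alternative fits. The contractile genes ACTA2 (-2.08), LMOD1 (-2.06) and TAGLN (-1.57) were also lower, and their part in the value of HSPB7 was not tested.

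**Figure D4:**
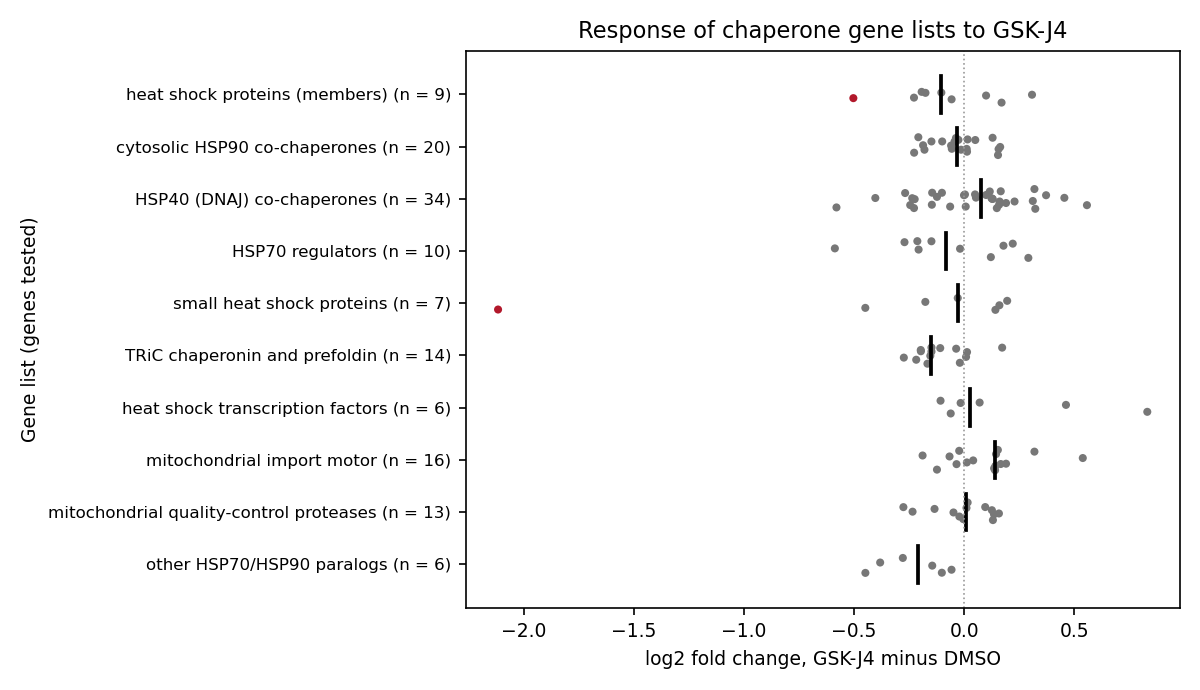
Log2 fold change (GSK-J4 minus DMSO) of every tested gene on each chaperone list, with genes at an adjusted p below 0.05 in red and a black tick at the median of each list. The medians lie between -0.21 and 0.14, and HSPB7 at -2.12 and HSP90AB1 at -0.50 are the red points.

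None of the 20 tested HSP90 co-chaperones was called (median -0.03), nor had any an unadjusted p below 0.05. They had log2 fold changes of -0.23 to 0.16, with NUDC (-0.23) and FKBP4 (-0.18) at the smallest p. STIP1, which bridges HSP70 and HSP90, had 221 ± 9.53 CPM with GSK-J4 and 214 ± 3.98 CPM with DMSO (SD, n = 3 each), and 0 of 20 co-chaperones was called by DESeq2. The 14 genes of the TRiC chaperonin, which folds actin and tubulin, and of prefoldin, which feeds it, had 0 calls and 0 with an unadjusted p below 0.05. Their median was -0.15, with 11 of 14 fold changes below 0, against 6019 of 12583 over all genes tested. CCT8 (-0.27), PFDN2 (-0.20) and CCT4 (-0.20) had the smallest p.

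Of 34 tested HSP40 (DNAJ) genes, whose proteins deliver clients to HSP70, 0 were called, with a median of 0.08 and 3 at an unadjusted p below 0.05. The histone co-chaperone gene DNAJC9 was at 21.8 ± 2.23 CPM with GSK-J4 and 32.5 ± 4.71 CPM with DMSO (SD, n = 3 each, log2 fold change -0.58, edgeR adjusted p = 0.0526), and DNAJC12 was at 20.7, 21.0 and 20.2 CPM with GSK-J4 and 16.4, 13.4 and 12.2 CPM with DMSO (0.56, adjusted p = 0.0688). DNAJC9 was called in 7 and DNAJC12 in 4 of 18 alternative fits, DESeq2 among them for both. DNAJC19 (0.32), of the import motor, was next in order of p. Among 10 HSP70 regulators, 0 were called (median -0.08, 1 at an unadjusted p below 0.05). BAG2 (-0.59, adjusted p = 0.0644), which restrains the ubiquitin ligase bound to HSP70, was called in 5 of 18 alternative fits, and ST13 (0.22) and the stress-induced BAG3 (-0.21) were not called in any.

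The heat shock factors, which switch on these chaperone genes under stress, had 0 calls among 6 genes tested, binding partners included (median 0.03, 1 at an unadjusted p below 0.05). HSF1 had 18.7 ± 0.666 CPM with GSK-J4 and 17.8 ± 1.88 CPM with DMSO, HSF2 60.2 ± 1.12 and 60.8 ± 6.90 CPM, and HSF3, a factor studied in birds, 26.7 ± 2.89 and 27.8 ± 1.63 CPM (SD, n = 3 each). HSF4, which acts in lens fibre formation in mammals, had a log2 fold change of 0.46 (edgeR adjusted p = 0.376), HSF2BP one of 0.83 (adjusted p = 0.172) and HSBP1 one of -0.11. Of 7 tested small heat shock proteins, HSPB7 was the 1 called, and the median was -0.03. The alpha crystallins CRYAA (0.20) and CRYAB (0.16) and HSPB1 (-0.45, adjusted p = 0.389) were not called.

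Partners of the mitochondrial members were not called either. The 16 tested genes of the import machinery had a median of 0.14, with 2 at an unadjusted p below 0.05, and the 13 quality-control proteases and relatives a median of 0.01, with 0 at that level. DESeq2 called none of either list. TIMM21 (0.54, adjusted p = 0.227) was called in 1 of 18 alternative fits, the one without DMSO replicate 2, while DNAJC19 (0.32) and TOMM22 (-0.19) were called in none. GRPEL1, which recharges HSPA9 with ATP, had a log2 fold change of 0.14 (SE 0.11). Among the proteases, PITRM1 (-0.28), PMPCB (-0.23) and CLPX (0.13) had the smallest p.

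Of the paralogs in the endoplasmic reticulum, HSPA5 had 201, 232 and 252 CPM in GSK-J4 libraries and 277, 304 and 353 CPM in DMSO libraries, which did not overlap, with a log2 fold change of -0.45 (edgeR adjusted p = 0.0715) that was called in 6 of 18 alternative fits. HSP90B1 had -0.15 (edgeR adjusted p = 0.735). The wider list of 6 related genes outside the members had 0 calls, a median of -0.21 and 2 at an unadjusted p below 0.05. All 6 fold changes were below 0, against 6019 of 12583 over all genes tested. HYOU1 (-0.28) and HSPA12A (-0.38) came next to HSPA5 in order of p.

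An unnamed gene, ENSGALG00000011715, carries the tables' HSP70 family tag and is annotated as a pseudogene on chromosome 5 at 53057972 to 53060373, minus strand. In the tables BRF1 and BTBD6 lie within 3 genes of it on one side and ZBTB25 and AKAP5 on the other, and in a RefSeq gene list of assembly GRCg7b the same 4 genes lie at these places around HSPA2. It was given no name here and was not counted as a member. It had 189, 161 and 176 FPKM in GSK-J4 replicates 1, 2 and 3, against 188, 155 and 249 FPKM in DMSO replicates 1, 2 and 3, second among genes with the tag after HSPA8. The groups overlapped, DMSO replicate 3 was the highest, and the log2 fold change was -0.17 (edgeR adjusted p = 0.599), or 0.01 without DMSO replicate 3. HSP70 genes are alike in sequence, so reads may be split between this gene and HSPA8 in a way that cannot be checked here. Another unnamed gene with the tag, ENSGALG00000033498, is annotated as protein-coding on chromosome 5. It had 23.1, 23.9 and 10.9 FPKM in GSK-J4 replicates 1, 2 and 3, against 31.2, 21.9 and 32.5 FPKM in DMSO replicates 1, 2 and 3. The groups overlapped, and the log2 fold change was -0.57 (edgeR adjusted p = 0.272).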

How the data were processed

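Count values were deposited by the authors as whole-number, unnormalised counts per gene, and FPKM values, per the file headers and a check of the values, equal each count over its gene's length, scaled by a single factor in each library. Per the submitters' processing notes, the tools included DESeq2 1.20.0, StringTie 1.3.3b, featureCounts 1.5.0-p3 and HISAT2 2.0.5, with no roles given. The sources used here do not give genome build, annotation or strand use. No annotated gene on the opposite strand overlaps a member. Symbols came from the tables for 13688 genes and from a RefSeq gene list (GRCg7b) for 710.

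Counts were tested in R 4.3.3 with edgeR 4.0.16 (filterByExpr, TMM, robust quasi-likelihood F test, treatment only), with Benjamini-Hochberg adjustment over 12583 genes and calls at 0.05. Standard errors were derived from the F statistic as |log2 fold change| / √F. CPM are TMM-scaled and log2 CPM used a prior count of 2. The biological coefficient of variation was 16.9%. Libraries of a group differed by more than sampling noise (chi-square 10.3 to 33.1 per degree of freedom). The fits were also run on counts simulated with known changes from the means and dispersions of these same libraries. Such a run checks how the fits were coded, not whether their model suits the data, and its outcome is not reported here. Alternatives were other scalings, filters, DESeq2 1.42.0, limma-voom and limma-trend (limma 3.58.1, genes with a mean of at least 0.5 FPKM), no robust estimation, a replicate block and leaving out each library.

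The members, lists and tests were chosen with earlier results of these data known. Named genes were the members, up to 3 genes per list with the smallest p, the 3 profiles nearest to HSP90AB1, and HSPA5 and HSP90B1. A few genes that these rules would name are not reported here. STIP1, HSF1, HSF2, HSF3, CRYAB, GRPEL1, HSPA4L, DNAJA4 and the unnamed HSP70 genes were added after values were seen.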

Additional observations from a re-analysis of the deposited data

How the results depend on the processing

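Over 18 alternative fits for each of the 9 members, 156 of 162 values kept their side of the threshold, and the other 6 were the lost calls of HSP90AB1, which kept its sign. HSP90AB1 was not called on log2(FPKM + 1) (log2 fold change -0.49, adjusted p = 0.0502), which left 0 members lower, and leaving out a library gave 0 to 1 lower. Uncalled HSPD1 changed sign without GSK-J4 replicate 1 (0.04) or DMSO replicate 3 (0.05), as did HSPH1 without DMSO replicate 3 (0.04). Of all genes, 132 were higher and 502 lower. The higher count was 269 with no filter, 325 with DESeq2 and 87 on log2(FPKM + 1), and 42 to 271 when a library was left out. The lower count was 320 on log2(FPKM + 0.1), 301 on log2(FPKM + 1) and 203 to 590 when a library was left out. List genes higher numbered 1 with no filter or DESeq2 and 0 to 1 when a library was left out. List genes lower numbered 4 with upper-quartile factors, 4 with library totals, 2 with crystallins left out, 3 with no filter, 4 with DESeq2 and 1 to 4 when a library was left out. With the replicate number as a block, 406 genes were higher and 723 lower, 1 member (HSP90AB1, adjusted p = 0.0182) lower, and 1 list gene higher and 4 lower. Deviations of libraries with the same number correlated at 0.30, 0.17 and 0.04. The numbers were not taken to pair the samples, since replicate 3 was below the 0.1 asked of every pair and reached 0.11 with another number, although 5 of 6 libraries correlated best with their own number, a hint of pairing from the data. TMM-scaled CPM per kilobase gave levels of 439 (GSK-J4) and 514 (DMSO) for HSPA8, 239.9 (GSK-J4) for HSP90AB1, 86.9 (DMSO) for HSPA9, 63.8 (GSK-J4) for HSPE1 and 25.5 (GSK-J4) for TRAP1, below the FPKM by more than 1 SD. Each scaling divides counts per length by a single factor in a library, so this offset was shared by all genes of a library. The causes of the other shifts were not tested. With 3 libraries per group an exact permutation test cannot go below 0.10, so none is given.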

Other observations

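HSPA4L and DNAJA4, outside the members and picked after their values were seen, were lowest in replicate 1 of both groups. So were HSPA5 and HSP90B1, outside the members and named by rule, whose pattern was picked out after the values were seen. The same held for 22.1% of all tested genes. Other chaperone genes went the other way with GSK-J4, where STIP1, GRPEL1 and BAG3 were highest in replicate 1. HSPA4L, of the HSP110 family, had 57.6, 78.5 and 80.5 CPM in GSK-J4 replicates 1, 2 and 3, against 62.9, 99.2 and 99.5 CPM in DMSO replicates 1, 2 and 3. DNAJA4, an HSP40 gene, had 34.2, 46.2 and 45.5 CPM in GSK-J4 libraries and 35.8, 52.8 and 63.1 CPM in DMSO libraries, and its profile was among the 3 nearest to that of HSPH1. HSP90B1 had 174, 248 and 265 CPM in GSK-J4 libraries and 189, 275 and 296 CPM in DMSO libraries. Neither HSPA4L (-0.27) nor DNAJA4 (-0.27) was called, with edgeR adjusted p of 0.484 and 0.517.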
